A study of Mus musculus with 16 samples.

Results

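The NF-kB subunits, regulators and target genes described here are 10 genes, picked by symbol from the 22440 genes listed for each library. They are the subunit genes Rela, Nfkb1, Relb, Nfkb2 and Rel, the inhibitor gene Nfkbia, the nuclear cofactor gene Bcl3, and the target genes Cxcl1, Icam1 and Irf1, and all 10 were in every table. The RNA came from primary cortical neurons of Swiss-Webster mouse embryos taken at embryonic day 16 and grown in neurobasal medium with B27. One culture received 5 µM etoposide, a poison of type II topoisomerases, and was set against a culture titled CTRL. One received NMDA, an agonist of a glutamate receptor class, and was set against a culture titled CTRL2. The protocol gives 50 µM NMDA for 10 min and then 10 min without it for most experiments, and states no duration for etoposide. Neither control title names a treatment, and the labels do not say how many cultures or litters went into a library. Each of the 4 groups had 1 library. Spread between replicates could thus not be measured, and no test was run. The series also holds 12 chromatin samples on DNA breaks and topoisomerase IIβ, which were not analysed here.

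NF-kB is a family of transcription factors that work as pairs of Rel proteins. In resting cells, inhibitors of the I kappa B family, chiefly the product of Nfkbia, hold most pairs in the cytoplasm. Receptor signals, and DNA breaks through the kinase ATM and the scaffold encoded by Ikbkg, activate a kinase complex that marks the inhibitor for destruction, and the freed pairs enter the nucleus. Nfkbia is itself a target, which closes a feedback loop. In the brain, glia use the pathway for inflammatory gene expression, and in neurons it has been studied for its link to synaptic activity.

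To show what the factor reads, the RefSeq promoter table of build GRCm38.p6 (250 bases before to 50 after a start) was searched on both strands for the NF-kB consensus of 10 bases. It held 11 entries for 8 of the members, and none for Nfkb1 and Relb, and all 11 matched the mm9 genome exactly. The consensus was found for 6 of the 8 members, namely Nfkbia, Cxcl1, Rel, Nfkb2, Irf1 and Bcl3, and for 9.55% of the 27025 genes with an entry. The entries for Rela and Icam1 held no match in this window, which says nothing about the factor there. The stretches below carry a match in capitals and are shown because the transcripts next to them are those whose levels are compared. Matches that overlap by all but 1 base are shown once. Not shown are the match of Bcl3, at base 3 after its start, and further matches of Nfkb2. These begin 11 bases upstream of its first start and 236 bases upstream of the later start named below. Coordinates are mm9.
Nfkbia, minus strand, chr12:56593635-56593683: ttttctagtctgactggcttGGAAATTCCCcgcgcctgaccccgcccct
Cxcl1, plus strand, chr5:91320180-91320229: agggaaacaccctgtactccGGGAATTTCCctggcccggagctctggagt
Rel, minus strand, chr11:23671032-23671081: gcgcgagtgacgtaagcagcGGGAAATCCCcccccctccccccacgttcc
Nfkb2, plus strand, chr19:46379168-46379217: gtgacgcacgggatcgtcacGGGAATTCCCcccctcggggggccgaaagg
Nfkb2, a later start, plus strand, chr19:46380185-46380214: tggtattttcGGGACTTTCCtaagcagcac
Irf1, plus strand, chr11:53583483-53583515: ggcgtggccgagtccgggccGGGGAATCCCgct
The match for Nfkbia begins 29 bases upstream of the start, and read on the other strand it is GGGAATTTCC, the same letters as the match for Cxcl1. These letters, chosen after the sequences were seen, were found for 29 of those genes, or 0.107%. The match of Cxcl1 begins 71 bases upstream of the start, that of Rel 92, the first shown for Nfkb2 39 and that of Irf1 13. The other match shown for Nfkb2 begins at base 11 after its start. A match describes the letters and is not evidence of binding.

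Values are FPKM, fragments per kilobase of transcript scaled to the fragment total of the library, which allows levels of genes of different length to be compared. By the low values of single-exon genes, 1 fragment on a transcript of 1 kb was worth 0.0806 FPKM with etoposide, 0.0710 in CTRL, 0.0545 with NMDA and 0.0517 in CTRL2, so the NMDA pair was sequenced more deeply. Fragment numbers and 95% intervals below are built from these values, are approximate, and cover counting error only. FPKM were higher in CTRL2 than in CTRL for 98.4% of genes, so levels are compared within a pair unless scaling is named. All 7 measured defining markers of neurons were above 1 FPKM in all 4 libraries. Microglial markers summed to 2.13 FPKM with etoposide, 1.18 in CTRL, 6.40 with NMDA and 8.10 in CTRL2, over 12 genes, and endothelial markers to between 0.409 and 3.69 FPKM over 7 genes.

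Nfkbia was the most abundant member in CTRL, with NMDA and in CTRL2, and shared the first place with Cxcl1 in the etoposide library, where the 2 genes stood at 4.91 and 4.94 FPKM with overlapping intervals. Its level lay above that of 75.1% of all genes in CTRL and of 79.8% in CTRL2. Rela, which encodes the main activating subunit, came next among the subunits in every library. In CTRL2 the order Nfkbia, Rela, Nfkb1, Relb, Irf1, Nfkb2 and Icam1 had no overlap between the intervals of neighbours, while the intervals of Icam1 and Cxcl1 overlapped, as did those of Cxcl1 and Rel. With NMDA, Irf1 and Relb could not be ordered, nor could Nfkb2, Cxcl1, Icam1 and Rel from one to the next. In CTRL the neighbours in the run from Icam1 through Rela, Cxcl1 and Nfkb1 to Relb had overlapping intervals, from 2.61 down to 1.89 FPKM. In the etoposide library those from Icam1 through Nfkb1, Relb, Irf1 and Nfkb2 to Rel did, from 1.28 down to 0.223 FPKM. Rel, whose product is best known from lymphocytes, and Bcl3 were the lowest 2 members in all 4 libraries.

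**Figure D1:**
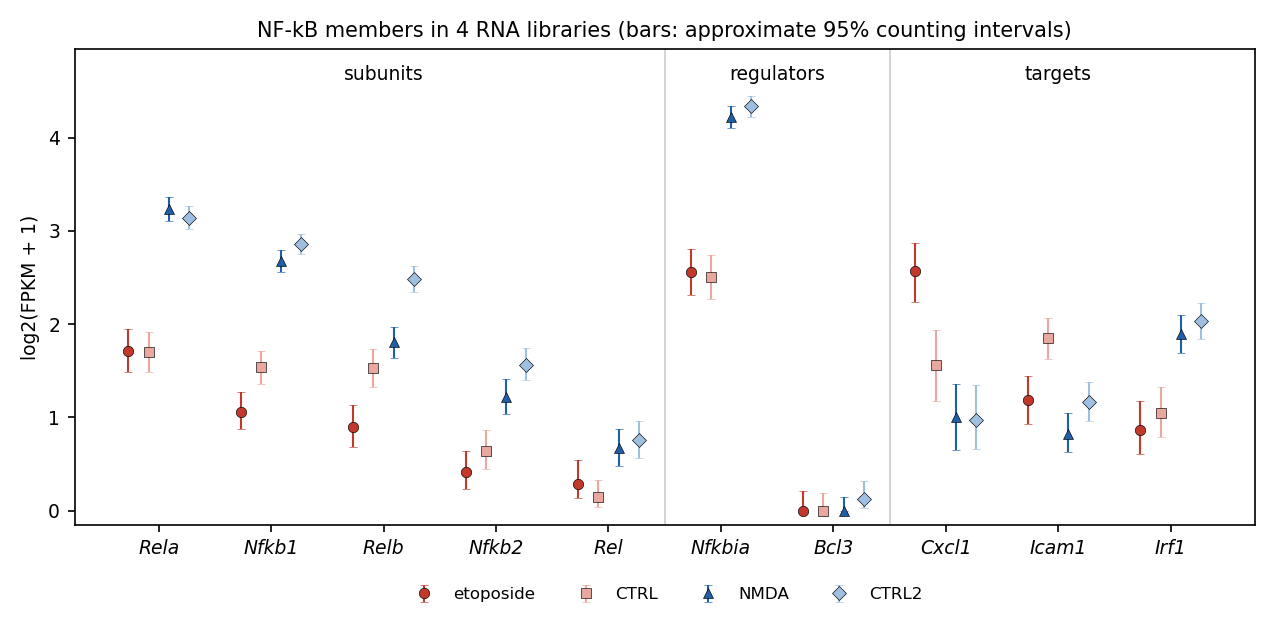
Levels of the 10 members as log2(FPKM + 1), a marker for each library, with approximate 95% counting intervals as bars. Nfkbia stood highest in CTRL, NMDA and CTRL2, Bcl3 was at or near 0 throughout, and Cxcl1 and Icam1 were the 2 members with higher deposited FPKM in CTRL than in CTRL2.

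With etoposide, Cxcl1 was the member that stood out. It encodes a chemokine that draws neutrophils, and it was higher in the treated library. The NF-kB members did not share a direction, since Relb, Nfkb1 and Icam1 were lower and Nfkbia and Rela close to their control level. Of the 10 members, 7 reached 1 FPKM in either library and were given a fold, which is the log2 ratio of FPKM + 1 and understates the change of low genes. On that scale 1 of the 7, Cxcl1, was at least 2-fold higher, against 0.477% of the 10681 genes compared, and none was at least 2-fold lower, against 7.36% of all genes. The median log2 fold was -0.18 over the 7 members and -0.32 over all genes, and 3 of the 7 lay above 0, as did 23.3% of all genes.

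Of the subunits with etoposide, Relb and Nfkb1 were lower beyond their counting intervals as deposited. Relb (chromosome 7, 20191571 to 20214787, minus strand), which encodes the subunit of the non-canonical pathway, stood at 0.855 FPKM with etoposide and at 1.89 FPKM in CTRL, from about 35 and 87 fragments. The FPKM ratio of Relb was 0.452 (interval 0.299 to 0.684). Nfkb1 (chromosome 3, 135247619 to 135354511, minus strand), which encodes the precursor of the usual partner of RelA, stood at 1.09 FPKM with etoposide and 1.90 FPKM in CTRL, a ratio of 0.572 (0.411 to 0.805). Both ratios lay on the lower side of 1 with their intervals.

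Rela (chromosome 19, 5637490 to 5648130, plus strand) was at 2.29 FPKM with etoposide and 2.25 FPKM in CTRL, a ratio of 1.02 (0.738 to 1.40). Nfkb2, whose precursor protein restrains RelB until it is processed, was at 0.328 FPKM with etoposide and 0.553 FPKM in CTRL, a ratio of 0.592 whose interval begins at 0.277 and extends above 1. The files list Nfkb2 at one locus together with Psd on the opposite strand, and exons of the pair overlap. Psd stood far higher, at 16.2 FPKM with etoposide and 23.5 FPKM in CTRL, so where strands are not told apart the reads of Nfkb2 are uncertain. Rel was at 0.223 FPKM with etoposide and 0.108 FPKM in CTRL, which is about 8 and 4 fragments, and the interval of its ratio, 0.608 to 10.3, spans both directions.

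The regulators gave no difference beyond counting error as deposited. Nfkbia (chromosome 12, 56590396 to 56593634, minus strand) stood at 4.91 FPKM with etoposide and 4.70 FPKM in CTRL, a ratio of 1.05 (0.786 to 1.40). Bcl3, which encodes an I kappa B protein that acts in the nucleus, was listed at 0 in both libraries, and 3 fragments on its transcript would have been 0.131 FPKM with etoposide and 0.115 FPKM in CTRL.

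The targets went apart with etoposide. Cxcl1 (chromosome 5, 91320271 to 91322141, plus strand) stood at 4.94 FPKM with etoposide and 1.96 FPKM in CTRL, from about 58 and 26 fragments, and its ratio was 2.52 (1.57 to 4.19). Its log2 fold of 1.00 was above that of 99.5% of the genes compared, and only just past the 2-fold line. Icam1 (chromosome 9, 20820404 to 20833240, plus strand), which encodes an adhesion molecule for leukocytes, stood at 1.28 FPKM with etoposide and 2.61 FPKM in CTRL, a ratio of 0.490 (0.328 to 0.715). Irf1, which encodes an interferon regulatory factor, was at 0.823 FPKM with etoposide and 1.06 FPKM in CTRL, a ratio of 0.775 (0.432 to 1.39). One target was thus higher, one was lower, and the interval of the other spans both directions. Exons of Icam1 and Irf1 overlap an annotated gene on the opposite strand.

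The etoposide library lay below its control for most genes, and the scale moved several members. Median scaling, which multiplies the treated library by 1.31 so that the median ratio is 1, turned the split of all genes at least 2-fold changed to 168 higher and 241 lower, against 51 higher and 786 lower as deposited. After it Cxcl1 had a ratio of 3.31 (2.06 to 5.50) and remained the single member at least 2-fold higher, against 1.57% of all genes, and none was lower, against 2.26%. The scaled ratio was 1.37 (1.03 to 1.83) for Nfkbia and 1.33 (0.968 to 1.84) for Rela. It was 0.594 (0.393 to 0.897) for Relb, 0.750 (0.540 to 1.06) for Nfkb1 and 0.643 (0.431 to 0.938) for Icam1. The sign of the log2 fold of Irf1 turned from -0.18 to 0.01, and the median of the 7 members was 0.01, against -0.02 for all genes.

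**Figure D2:**
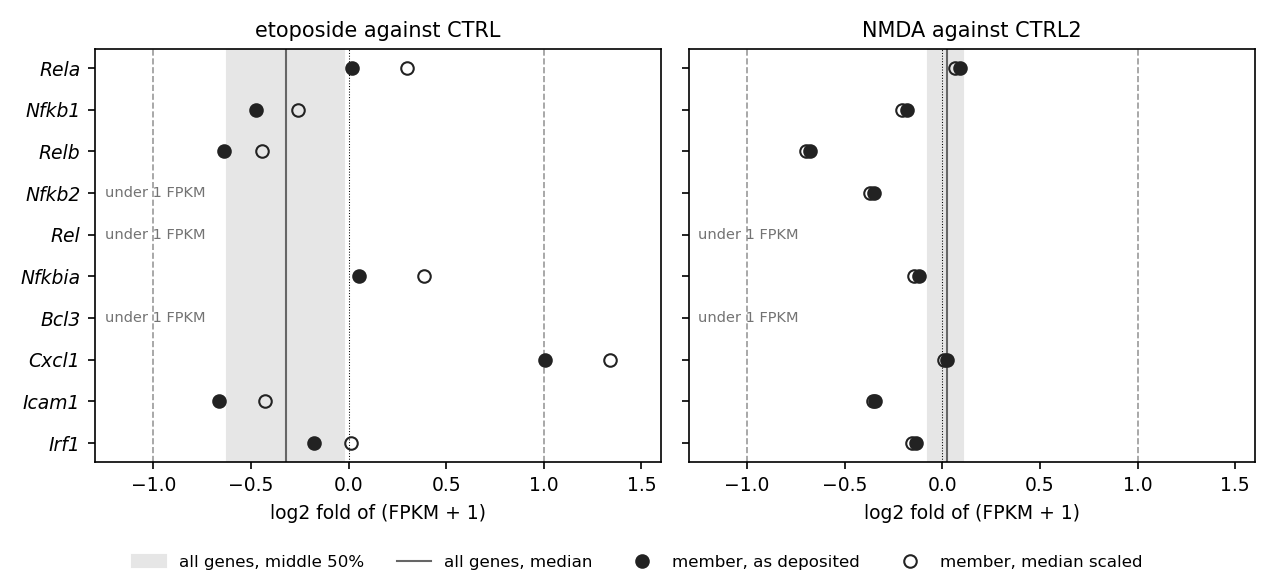
Log2 fold of FPKM + 1 for each member that reached 1 FPKM in either library of a pair, as deposited (filled) and median scaled (open), with etoposide on the left and NMDA on the right. The grey band and line give the middle 50% and the median of all genes as deposited, and dashed lines mark 2-fold. Cxcl1 lay past the higher 2-fold line with etoposide, and Relb was the lowest member with NMDA.

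Fold with etoposide also went with the genomic span of a gene. In 5 equal groups of genes by span, the median log2 fold was -0.09 in the group of shortest genes and -0.67 in that of longest genes. For CTRL2 against CTRL as deposited, the median also fell with span, from 1.59 in the shortest group to 1.18 in the longest. With NMDA it went from -0.006 to 0.066. In the etoposide pair Cxcl1, with a span of 1.87 kb, lay 1.09 above the median of its span group. Nfkb1, which spans 107 kb and is among the longest genes, lay 0.19 above the median there. The difference from the span group was -0.50 for Icam1 and -0.36 for Relb. The part of span in these values was not tested.

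With NMDA the members were mostly lower, by small amounts, and Relb was the member that stood out. Of the 10 members 8 reached 1 FPKM in either library. None of the 8 was at least 2-fold higher or lower, against 0.438% and 0.729% of the 13028 genes compared. Of the 8, 6 lay below 0, against 42.8% of all genes, and their median log2 fold was -0.16, against 0.02 for all genes. After median scaling 6 of 8 lay below 0, against 50.4% of all genes, and the median was -0.18.

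Relb stood at 2.49 FPKM with NMDA and 4.59 FPKM in CTRL2, from about 150 and 291 fragments. Its ratio was 0.543 (0.443 to 0.664), and 1.02% of the genes compared had a lower log2 fold than its -0.68. At a limit of 1.5-fold, set after the values were seen, Relb was the 1 member of 8 that was lower, against 1.27% of all genes. Nfkb2 was at 1.32 FPKM with NMDA and 1.96 FPKM in CTRL2, a ratio of 0.673 (0.501 to 0.903), with Psd at 122.6 FPKM with NMDA and 117.9 FPKM in CTRL2 at the same locus. The products of these genes, RelB and the processed form of the Nfkb2 precursor, are the pair of the non-canonical pathway.

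The remaining subunits differed little with NMDA. Nfkb1 was at 5.41 FPKM with NMDA and 6.27 FPKM in CTRL2, a ratio of 0.863 (0.755 to 0.985). Rela was at 8.42 FPKM with NMDA and 7.84 FPKM in CTRL2, a ratio of 1.07 (0.936 to 1.23). Rel was at 0.593 FPKM with NMDA and 0.689 FPKM in CTRL2, and the interval of its ratio ran from 0.510 to 1.42.

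Nfkbia was at 17.7 FPKM with NMDA and 19.3 FPKM in CTRL2, a ratio of 0.918 (0.814 to 1.04). Bcl3 was listed at 0 with NMDA, where 3 fragments would be 0.0883 FPKM, and at 0.0902 FPKM in CTRL2, about 3 fragments. Among the targets, Cxcl1 was at 1.00 FPKM with NMDA and 0.968 FPKM in CTRL2, from about 17 and 18 fragments, and the interval of its ratio was wide, from 0.482 to 2.05. Icam1 was at 0.761 FPKM with NMDA and 1.23 FPKM in CTRL2, a ratio of 0.617 (0.400 to 0.955). Irf1 was at 2.73 FPKM with NMDA and 3.09 FPKM in CTRL2, a ratio of 0.882 (0.675 to 1.15). No target was thus higher with NMDA beyond its counting interval.

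The 2 comparisons use no library in common. Of the 7 members compared in both, Nfkb1, Relb, Icam1 and Irf1 were lower in both as deposited, which is 4 of 7, against 26.7% of the 10573 genes compared in both. The ratio interval of Irf1 spans both directions in each comparison. After median scaling its log2 fold with etoposide was 0.01, and only Nfkb1, Relb and Icam1 stayed lower in both. The share of all genes lower in both after scaling was not counted. Relb was the 1 member at least 1.5-fold lower in both, as were 5 of those 10573 genes, or 0.0473%. That count rests on the deposited scale and on a limit set after the values were seen, since the median-scaled log2 fold of Relb with etoposide was -0.45 and the limit is 0.58. The authors' deposited table of changed genes names none of the 10 members for etoposide, where it lists 692 genes, and none for NMDA, where it lists 63. Beside the 22440 genes given an FPKM these lists are short, so the absence of 10 genes carries little information.

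The 2 control libraries differed for Cxcl1 and Icam1, and by median-scaled FPKM ratio they lay further apart than either treated library from its own control. On the log2(FPKM + 1) scale this held for Icam1, and for Cxcl1 the etoposide difference of 1.34 was larger than that of -1.15 between the controls. As deposited the median log2 difference of all genes was 1.32, so CTRL2 was multiplied by 0.339 to bring the median ratio to 1. Cxcl1 then stood at a ratio of 0.168 (0.0883 to 0.324) in CTRL2 against CTRL, and Icam1 at 0.161 (0.115 to 0.226). Already as deposited, Cxcl1 was at 0.968 FPKM in CTRL2 and 1.96 FPKM in CTRL, and Icam1 at 1.23 FPKM in CTRL2 and 2.61 FPKM in CTRL. These were the 2 of 8 members at least 2-fold lower after scaling, against 1.82% of all genes. None was higher, against 7.19%, and the scaled log2 differences of the other 6 ran from -0.18 for Relb to 0.40 for Nfkbia. Of 10 further targets with a fold between the controls, 5 lay above 0 and 5 below after scaling, with 1 at least 2-fold in each direction. The lower one was Ccl2, which encodes a chemokine that recruits monocytes, at 0.849 FPKM in CTRL2 and 3.04 FPKM in CTRL. The higher one was Traf1, which encodes an adaptor of tumour necrosis factor receptors, at 5.48 FPKM in CTRL2 and 0.0197 FPKM in CTRL.

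Sums of markers of other cell types also differed between the controls, and in the opposite direction, though not every marker did so. Astrocyte markers summed to 944.7 FPKM in CTRL2 and 103.0 FPKM in CTRL over 8 genes, a scaled ratio of 3.11. After scaling all 8 were higher in CTRL2, where the median log2 difference of all genes was 0.07. Of the 8, 6 were at least 2-fold higher, against 7.19% of all genes. Microglial markers had a scaled ratio of sums of 2.34, with 3 of 12 genes, C1qa, C1qb and C1qc, at 0 in CTRL and none at 0 in CTRL2. Aif1, at 2.63 FPKM, and Cd68, at 1.98 FPKM, made up most of the sum in CTRL2. Other microglial markers, all under 1 FPKM, went the other way. Tyrobp, Trem2 and P2ry12 were lower in CTRL2 already as deposited, and Ptprc and Itgam after scaling. For mural cell and fibroblast markers the scaled ratio of sums was 1.84, and Acta2 made up 25.3 of the 38.2 FPKM in CTRL2. Of these markers, Col1a1 and Col3a1 were lower in CTRL2 already as deposited, and Col1a2 and Rgs5 after scaling. In bulk RNA, fewer cells of a type and less RNA per cell cannot be told apart. The part of these cells in the levels of Cxcl1 and Icam1 was not tested.

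For Cxcl1 and Icam1 the size of the difference depended on the control, and in places its direction. For Icam1 with etoposide the scaled log2 fold was -0.43 against CTRL and 1.45 against CTRL2, and for Cxcl1 with NMDA it was 0.01 against CTRL2 and -1.15 against CTRL. Against CTRL2 after median scaling, the etoposide library had Cxcl1 at a ratio of 20.3 (11.6 to 36.1) and Icam1 at 4.12 (2.66 to 6.17), so that 2 members were at least 2-fold higher, against 4.74% of all genes. Against CTRL after median scaling, the NMDA library had Cxcl1 at 0.170 (0.0849 to 0.319) and Icam1 at 0.0970 (0.0652 to 0.146), so that 2 members were at least 2-fold lower, against 1.90% of all genes. Relb, Rela and Irf1 were among the members less moved by the choice. The scaled ratio of Relb was 0.594 with etoposide against CTRL and 0.742 (0.510 to 1.06) against CTRL2. With NMDA it was 0.532 against CTRL2 and 0.438 (0.335 to 0.579) against CTRL. That of Rela was 1.33 with etoposide against CTRL and 1.16 against CTRL2, and 1.05 with NMDA against CTRL2 and 1.24 against CTRL. For Irf1 these ratios were 1.02, 1.06, 0.864 and 0.853 in the same order. Nfkbia stood at 1.37 with etoposide against CTRL and at 1.02 (0.809 to 1.26) against CTRL2. With NMDA its scaled ratio was 0.899 (0.797 to 1.01) against CTRL2 and 1.25 (1.01 to 1.56) against CTRL, on the other side of 1.

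**Figure D3:**
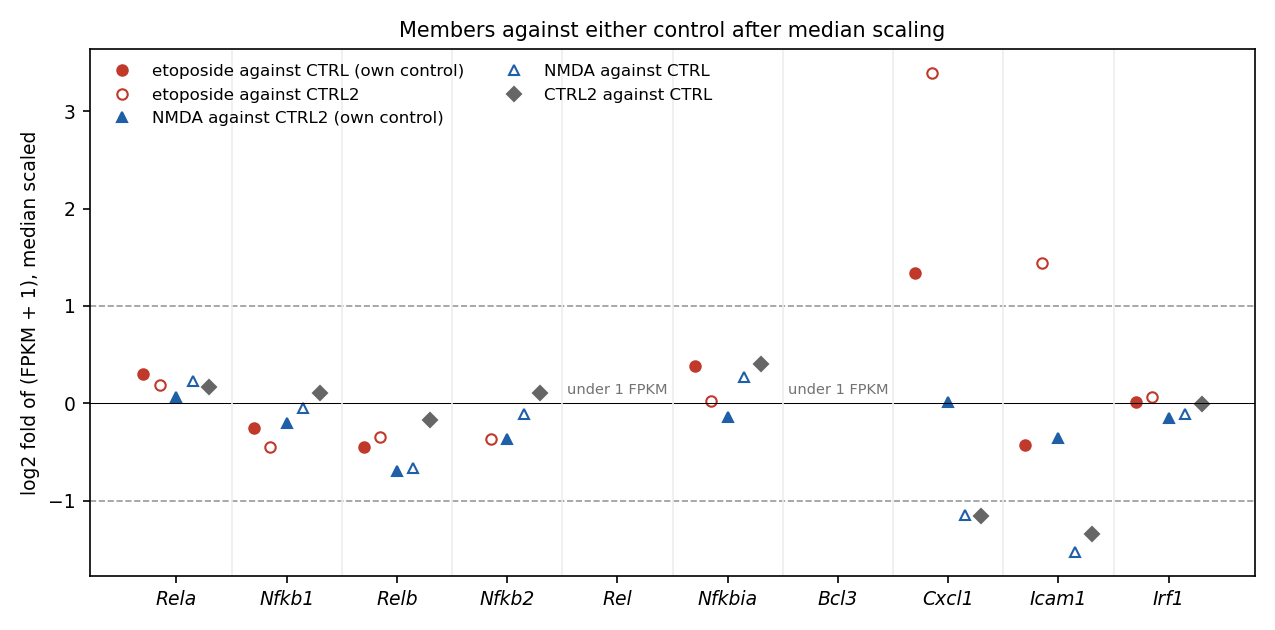
Median-scaled log2 fold of FPKM + 1 for each member that reached 1 FPKM, for each treated library against its own control (filled) and against the other control (open), and for CTRL2 against CTRL (grey). Dashed lines mark 2-fold. Cxcl1 and Icam1 spread widely with the control. Relb stayed below 0 and Rela above 0 in all 5 pairings, which share libraries.

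Markers of neurons and other cells also differed within the pairs. With etoposide, neuronal markers summed to 334.6 FPKM, against 568.8 FPKM in CTRL, and all 7 were lower as deposited. Only 23.3% of all genes lay above 0 there. Of the 7, 4 were at least 2-fold lower, against 7.36% of all genes, or 1 after median scaling, against 2.26%. With etoposide, astrocyte markers summed to 54.3 FPKM, against 103.0 FPKM in CTRL. Of these, 7 of 7 with a fold were lower as deposited, where 23.3% of all genes lay above 0. Microglial markers summed to 2.13 FPKM with etoposide and 1.18 FPKM in CTRL, and Cd68 made up 1.57 FPKM of the first sum and 0.420 FPKM of the second, with C1qb and C1qc at 0 in both. With NMDA, microglial markers summed to 6.40 FPKM, against 8.10 FPKM in CTRL2, and 3 of 3 with a fold were lower, against 42.8% of all genes. Those under 1 FPKM were mixed. Tyrobp (0.885 FPKM with NMDA, 0.233 in CTRL2), C1qa, Itgam and Cx3cr1 were higher, and Csf1r, C1qb, Ptprc, Trem2 and P2ry12 lower. Astrocyte markers summed to 911.9 FPKM with NMDA, against 944.7 FPKM in CTRL2, and 6 of 8 were lower, against 42.8% of all genes. All 7 neuronal markers were higher with NMDA as deposited, against 57.2% of all genes, with a sum of 1563 FPKM, against 1473 FPKM in CTRL2. Their log2 folds were small, from 0.005 for Slc17a7 to 0.14 for Gad1. Mural cell and fibroblast markers summed to 2.29 FPKM with etoposide and 7.04 FPKM in CTRL, a scaled ratio of 0.426. Most of that difference was Acta2, at 0.0944 FPKM with etoposide and 4.61 FPKM in CTRL. Dcn, the other of these markers with a fold, was higher, at 1.87 FPKM with etoposide and 1.42 FPKM in CTRL. The rest, all under 1 FPKM, were lower as deposited. The part of all these cell types in the members' values was not tested.

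Other parts of the pathway were counted from 6 lists. Ligands and receptors were mostly under 1 FPKM. Of 17 genes 3 reached 1 FPKM in the etoposide pair and 7 in the NMDA pair, and Tnf, a classical ligand that activates the pathway, was listed at 0.0649 FPKM with NMDA and at 0 in the other libraries. Their median log2 fold was -0.62 with etoposide and -0.10 with NMDA. Tnfrsf1a, the main receptor of that ligand, was at 0.707 FPKM with etoposide and 2.16 FPKM in CTRL. Tnfrsf12a, the receptor of the cytokine TWEAK, was at 3.50 FPKM with etoposide and 2.86 FPKM in CTRL.

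Adaptors and kinases were near the median of all genes. Of 15 with a fold in the etoposide pair 3 lay above 0, against 23.3% of all genes, and 1 was at least 2-fold lower, against 7.36%, with a median of -0.37. That gene was Traf3, an adaptor that keeps the kinase of the non-canonical pathway low, at 3.73 FPKM with etoposide and 9.89 FPKM in CTRL, and after median scaling its log2 fold was -0.89, which is under 2-fold. Traf3 was also the single gene of the 6 lists in the authors' deposited table for etoposide, which holds 692 genes beside the 22440 given an FPKM. None of the 6 lists had a gene in the one for NMDA, which holds 63. With NMDA 7 of 20 lay above 0, against 57.2% of all genes, none at least 2-fold changed, with a median of -0.04. Rbck1, a part of the complex that builds linear ubiquitin chains, was at 5.93 FPKM with etoposide and 9.02 FPKM in CTRL, and at 26.4 FPKM with NMDA and 26.6 FPKM in CTRL2.

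Other inhibitors had a median of -0.52 with etoposide, with 1 of 6 above 0, against 23.3% of all genes, and of -0.03 with NMDA, with 4 of 10 above 0, against 57.2%. Commd1, which promotes the removal of RelA, was at 10.0 FPKM with etoposide and 8.09 FPKM in CTRL. N4bp1 was at 2.05 FPKM with etoposide and 3.24 FPKM in CTRL. None of the list with a fold was at least 2-fold changed in either comparison on the log2(FPKM + 1) scale.

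On the log2(FPKM + 1) scale none of the 9 further target genes with a fold was at least 2-fold higher or lower with either treatment. Of all genes 0.477% were higher and 7.36% lower with etoposide, and 0.438% and 0.729% with NMDA. By plain FPKM ratio, some were more than 2-fold lower with etoposide as deposited. The share of all genes on that measure was not counted. Sod2 and Bcl2l1 were just past that line. Their log2 folds of FPKM + 1 were -0.97 and -0.92 as deposited, and -0.61 and -0.57 after median scaling. With etoposide 3 of 9 lay above 0, namely Ccl2, Cxcl10 and Gadd45b, against 23.3% of all genes, and 4 of 9 after median scaling, with a median of -0.72, against -0.32 for all genes. Sod2, the mitochondrial superoxide dismutase, was at 12.4 FPKM with etoposide and 25.3 FPKM in CTRL, and Bcl2l1, which guards against cell death, at 8.13 FPKM with etoposide and 16.3 FPKM in CTRL. With NMDA 2 of 9 lay above 0, against 57.2% of all genes, with a median of -0.23. There Sod2 was at 70.9 FPKM with NMDA and 63.6 FPKM in CTRL2, and Bcl2l1 at 38.8 FPKM with NMDA and 38.7 FPKM in CTRL2.

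The arm that links DNA damage to NF-kB had a median of -0.35 with etoposide, close to that of all genes, with 1 of 8 above 0, against 23.3% of all genes. Erc1 encodes a scaffold of the kinase complex and a presynaptic protein. It was the 1 gene of these 8 at least 2-fold lower, against 7.36% of all genes. Erc1 stood at 3.76 FPKM with etoposide and 8.70 FPKM in CTRL. Its log2 fold was -1.03 as deposited and -0.71 after median scaling. With NMDA 8 of 9 lay above 0, against 57.2% of all genes, with a median of 0.10. Interferon-regulated genes, the field of Irf1, had a median of -0.16 with etoposide, with 1 of 4 above 0, against 23.3% of all genes, and of -0.17 with NMDA, with 2 of 8 above 0, against 57.2%. Of these, B2m, a part of class I antigen presentation, was at 7.20 FPKM with etoposide and 12.2 FPKM in CTRL, and at 51.8 FPKM with NMDA and 52.0 FPKM in CTRL2. Tap1, a peptide transporter of the same route, was at 1.32 FPKM with etoposide and 1.45 FPKM in CTRL.

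**Figure D4:**
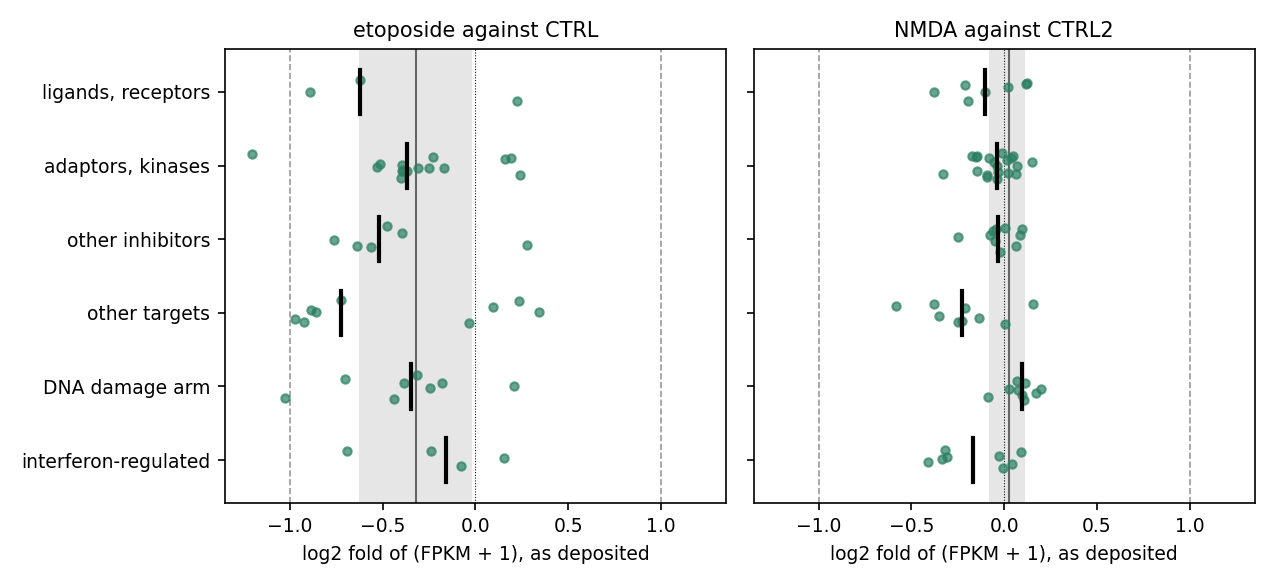
Log2 fold of FPKM + 1 as deposited for the genes of 6 further pathway lists that reached 1 FPKM in either library, with etoposide on the left and NMDA on the right. Points are genes, spread vertically at random, and the black bars their medians. The grey band and line give the middle 50% and the median of all genes, and dashed lines mark 2-fold. Traf3 and Erc1 lay past the lower 2-fold line with etoposide, and with NMDA no gene of the lists did.

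Over the 4 libraries, Gtf3c5, which encodes a part of a transcription factor complex of RNA polymerase III, had the pattern most like that of Nfkbia, at a distance of 0.0171 in log2(FPKM + 1) centred on each gene's mean, among 13136 genes. Ccdc94 came next at 0.0343 and D030047H15Rik at 0.0398. With 4 libraries such nearness is a description only. Relb and Bcl3 lie on chromosome 7 with 179.0 kb between their loci, and no other pair of members lies within that distance.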

How the data were processed

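RNA of 4 cultures was sequenced in paired ends from a total RNA kit, per the labels' protocols. TopHat, Bowtie, Cufflinks 2.0.0, Cuffdiff and build mm9 are named in the submitters' processing notes, without their roles. FPKM per gene were computed by the authors, and the deposited values were taken unaltered. From the authors' 2 comparison tables only gene names were taken, since their 4 FPKM columns could not each be matched to a sample. Neither the rule that chose those genes nor the use of strand in counting is stated in the sources.

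Groups follow the sample titles. Fold was log2((first + 1)/(second + 1)) with a pseudocount of 1 FPKM, for genes at 1 FPKM or more in either library, and folds of at least 2 were counted. Groups of 1 library allow no test. Median scaling set the median ratio to 1 over genes at 1 FPKM or more in both libraries. Fragment numbers came from FPKM, the longest GENCODE M1 transcript and the FPKM of 1 fragment on 1 kb, taken from 1354 single-exon genes. Ratio intervals are exact 95% binomial ones. Only the median-scaled folds and the scale factor were tested on simulated data, with changes placed in genes of higher level. Fragment numbers, intervals and the promoter search were not tested in this way.

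Members and lists were chosen with earlier results of these data known. Further genes named are those at least 2-fold changed in a list, up to 4, filled up to 2 by level, and the 3 nearest to Nfkbia. One gene that this rule names is not reported here. Tnf, Ccl2, Cxcl10, Gadd45b, Traf1, Psd and single markers fall outside this rule and were picked with their values in view. Computation used Python 3.11.15, pandas 2.3.3 and scipy 1.17.1.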

Additional observations from a re-analysis of the deposited data

How the results depend on the processing

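With 1 library per group no replicate could be left out. No paired analysis was possible because each group has 1 library. With a pseudocount of 0.1 FPKM, 1 member (Relb) was at least 2-fold lower with etoposide, against 0, while all genes gave 127 higher and 1551 lower, against 51 and 786. With the other control after median scaling, 2 members were at least 2-fold higher with etoposide (all genes 616 higher, 1627 lower), and 2 were at least 2-fold lower with NMDA, against 0 (all genes 815 higher and 245 lower, against 57 and 95). A filter at 5 FPKM left no member for etoposide and 3 for the controls, with 0 at least 2-fold lower. The controls as deposited gave 3 members at least 2-fold higher and 0 lower, with a median of 0.97. For the controls, genes at least 2-fold higher numbered 934 after scaling, 1817 with a pseudocount of 0.1 and 9754 as deposited, and those lower 237, 435 and 92, or 153 at 5 FPKM. Of the counts and medians, 41 stayed within 1.5 times or, for medians, within the median counting interval of the members. With a pseudocount of 0.5 FPKM, 78 genes were at least 2-fold higher with etoposide. Of the single-member folds, 4 of 15 changed sign with the other control, 1 of 15 with median scaling, 2 of 8 for the controls as deposited, and none of 23 with a pseudocount of 0.1 or 0.5 FPKM or with no filter. Settings for the control pair were chosen after seeing the data. Depth limits members with few fragments, such as Rel, Bcl3 and, outside the etoposide library, Cxcl1, and causes were not tested.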
